A study of Mus musculus with 14 samples.

Results

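The 26 genes described here encode SREBP2, the transcription factor that drives cholesterol synthesis, its regulators, the enzymes from acetyl-CoA to cholesterol, and 3 proteins that act in sterol transport and lipoprotein uptake. They were taken by gene name alone from a table of 57180 genes measured in mouse liver. All 26 were found once in the table and all 26 passed the filter on low counts, among 16201 genes tested. RNA sequencing of whole liver gave 1 library per mouse from littermates that differed in their Pkd1 genotype: 6 libraries labelled WT, 4 labelled Het and 4 labelled Homo. Every genotype label carried the word Cre, and all the mice ate normal chow, so neither Cre nor diet differed between the groups as labelled. Pkd1 encodes polycystin 1, the protein altered in the common form of autosomal dominant polycystic kidney disease. The labels name no Pkd1 allele, no promoter for Cre, and no strain, age or sex, so it cannot be said which liver cells carried an altered Pkd1. The comparisons asked how each of the 26 genes differed from WT in Het and in Homo livers, and whether Het and Homo differed from each other.

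Cholesterol synthesis is set by a feedback loop at the endoplasmic reticulum. When membrane sterol is low, the escort protein SCAP carries SREBP2 to the Golgi, where proteases release its amino-terminal part to enter the nucleus and switch on nearly every enzyme of the pathway. When sterol is high, the INSIG proteins hold SCAP back, and in liver this loop balances synthesis against uptake of lipoproteins and loss of sterol into bile.

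SREBP2 binds sterol regulatory elements and works together with NF-Y, which binds CCAAT boxes, and SP1, which binds GC boxes, so the promoters of the members were searched for these letters. RefSeq promoter windows on GRCm38.p6, from 250 bases before to 50 bases after the gene start, were at hand for 22 of the 26 members; Fdft1, Sqle, Stard4 and Fdps had none. Each motif was searched on both strands. The CCAAT box, CCAAT, was found in 19 of the 22 windows (86.4%), against 38.0% of all 27025 windows of the same length. In 16 of those 19 the nearest upstream copy began within 100 bases of the start. Windows without it were those of Scap, Acat2 and Dhcr7, and a second listed start of Dhcr7 did hold it. The GC box, GGGCGG, was also found in 19 of the 22 windows, against 35.9% of all windows. A sterol regulatory element of the form TCACNCCAC was found in Hmgcs1 alone, against 1.22% of all windows. Its shorter form TCACCCCA, which overlaps the longer one in Hmgcs1, was found in Hmgcs1 and Srebf2, against 1.47% of all windows. The E-box, CACGTG, was found in 4 of 22, namely Insig1, Scap, Hsd17b7 and Sc5d, against 7.24% of all. These matches describe the letters only, and a window without a match says nothing of binding.

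The 6 promoters below are examples with and without a sterol regulatory element or a CCAAT box. They do not cover every part of the pathway. Each is the 170 bases just before the start, 5′ to 3′ on the strand of the gene. Capitals mark sterol regulatory elements (TCACCCCA, and TCACCCCAC in Hmgcs1), CCAAT boxes (CCAAT, or ATTGG on the other strand) and GC boxes (GGGCGG, or CCGCCC on the other strand). They lie on the plus strand at chr15:82147099-82147268 (Srebf2), chr13:119690181-119690350 (Hmgcs1), chr13:8885436-8885605 (Idi1) and chr7:143822997-143823166 (Dhcr7), and on the minus strand at chr5:4104698-4104867 (Cyp51) and chr17:12960726-12960895 (Acat2), all on GRCm38.p6.
Srebf2: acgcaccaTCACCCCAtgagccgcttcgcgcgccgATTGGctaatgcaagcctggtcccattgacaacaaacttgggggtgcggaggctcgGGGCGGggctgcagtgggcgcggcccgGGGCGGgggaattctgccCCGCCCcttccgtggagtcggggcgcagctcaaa
Hmgcs1: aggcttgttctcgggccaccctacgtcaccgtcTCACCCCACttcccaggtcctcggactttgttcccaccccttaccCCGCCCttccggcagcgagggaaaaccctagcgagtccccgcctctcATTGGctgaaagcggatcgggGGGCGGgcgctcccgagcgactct
Idi1: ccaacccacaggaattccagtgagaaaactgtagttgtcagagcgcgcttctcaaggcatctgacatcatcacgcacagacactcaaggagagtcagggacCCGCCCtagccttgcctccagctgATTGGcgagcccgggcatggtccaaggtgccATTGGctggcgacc
Cyp51: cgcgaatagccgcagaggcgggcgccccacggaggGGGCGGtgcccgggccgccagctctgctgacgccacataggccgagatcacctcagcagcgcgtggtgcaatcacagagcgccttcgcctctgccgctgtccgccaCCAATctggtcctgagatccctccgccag
Acat2: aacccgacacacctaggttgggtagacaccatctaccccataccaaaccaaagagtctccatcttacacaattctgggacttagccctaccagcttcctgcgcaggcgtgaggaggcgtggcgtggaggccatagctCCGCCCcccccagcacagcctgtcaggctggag
Dhcr7: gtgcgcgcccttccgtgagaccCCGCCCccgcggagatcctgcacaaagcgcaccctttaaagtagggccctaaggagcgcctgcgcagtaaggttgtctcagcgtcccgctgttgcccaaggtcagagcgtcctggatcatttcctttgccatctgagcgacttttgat
The element of Hmgcs1 began 137 bases and that of Srebf2 162 bases before the start. Idi1 held a pair of CCAAT boxes, at 45 and 14 bases before the start, and Cyp51 held 1 at 29 bases. Acat2 and Dhcr7 held a GC box alone in the printed stretch.

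Libraries held from 18573739 to 40925973 estimated counts, and mitochondrial transcripts took 9.83% to 12.5% of them. Pkd1 averaged 34.8 ± 2.77 CPM (SD, n = 6) in WT, 32.2 ± 3.52 (n = 4) in Het and 25.3 ± 1.51 (n = 4) in Homo, where CPM is the count relative to the effective library size. Its log2 fold change was -0.46 in Homo against WT (adjusted p = 0.0246, edgeR's quasi-likelihood test with Benjamini-Hochberg adjustment) and -0.11 in Het (adjusted p = 0.998). A difference in Pkd1 RNA between Het and WT was not detectable. The 6 hepatocyte markers, which check the labelled tissue, summed to between 50531 and 78483 CPM in each of the 14 libraries. The 6 lymphocyte markers summed to 15.8 to 29.2 CPM in WT, 29.9 to 33.3 in Het and 32.0 to 39.0 in Homo, with no overlap with WT and none of the 6 at 0 in all libraries; 4 of the 6 passed the low-count filter and none passed the test. The part of the lymphocyte markers in the results below was not tested. Sums of every other marker list looked at overlapped WT in both genotypes. The 6 bile duct (cholangiocyte) markers spanned 25.5 to 36.1 CPM in WT, 28.3 to 36.2 in Het and 20.5 to 66.7 in Homo. The 7 Kupffer cell markers spanned 178 to 213 CPM in WT, 178 to 209 in Het and 208 to 223 in Homo. In whole liver, a change in the number of a kind of cell and a change in RNA per cell cannot be told apart.

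Taken as a group, the pathway sat slightly above WT in both genotypes, but no single gene passed the test. Against WT, 25 of 26 members had a fold change above 1 in Het, where 50% of all genes tested did, with a median log2 fold change of 0.25 and a range of -0.07 to 0.63. In Homo, 24 of 26 lay above 1, where 50.6% of all genes did, with a median of 0.17 and a range of -0.11 to 0.61. The median over all 16201 genes was 0.00 in each comparison. None of the 26 members passed an adjusted p of 0.05 in Het, where 0.0556% of all genes did, nor in Homo, where 0.222% did. At an unadjusted p under 0.05, 13 of 26 members were higher in Het and none was lower, against 2.36% of all genes that were higher. In Homo, 7 of 26 were higher at that level and none was lower, against 2.64% of all genes. Without Het 2 the members under that p in Het numbered 8, and without Homo 2 those in Homo numbered 4. Members often moved together by library, so these are not counts of independent genes. With the mean of Het and Homo set against WT, all 26 members lay above 1, where 49.5% of all genes did, with a median of 0.20. In that contrast 0 of 26 passed the adjusted threshold, where 0.167% of all genes did, and 13 of 26 were higher at an unadjusted p under 0.05, against 2.5% of all genes. With DESeq2 in place of edgeR, Dhcr7 passed in Het, and Acat2 and Dhcr7 passed in Homo and in the mean of both. Het and Homo were set against the same 6 WT libraries, so their likeness is not independent evidence.

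**Figure D1:**
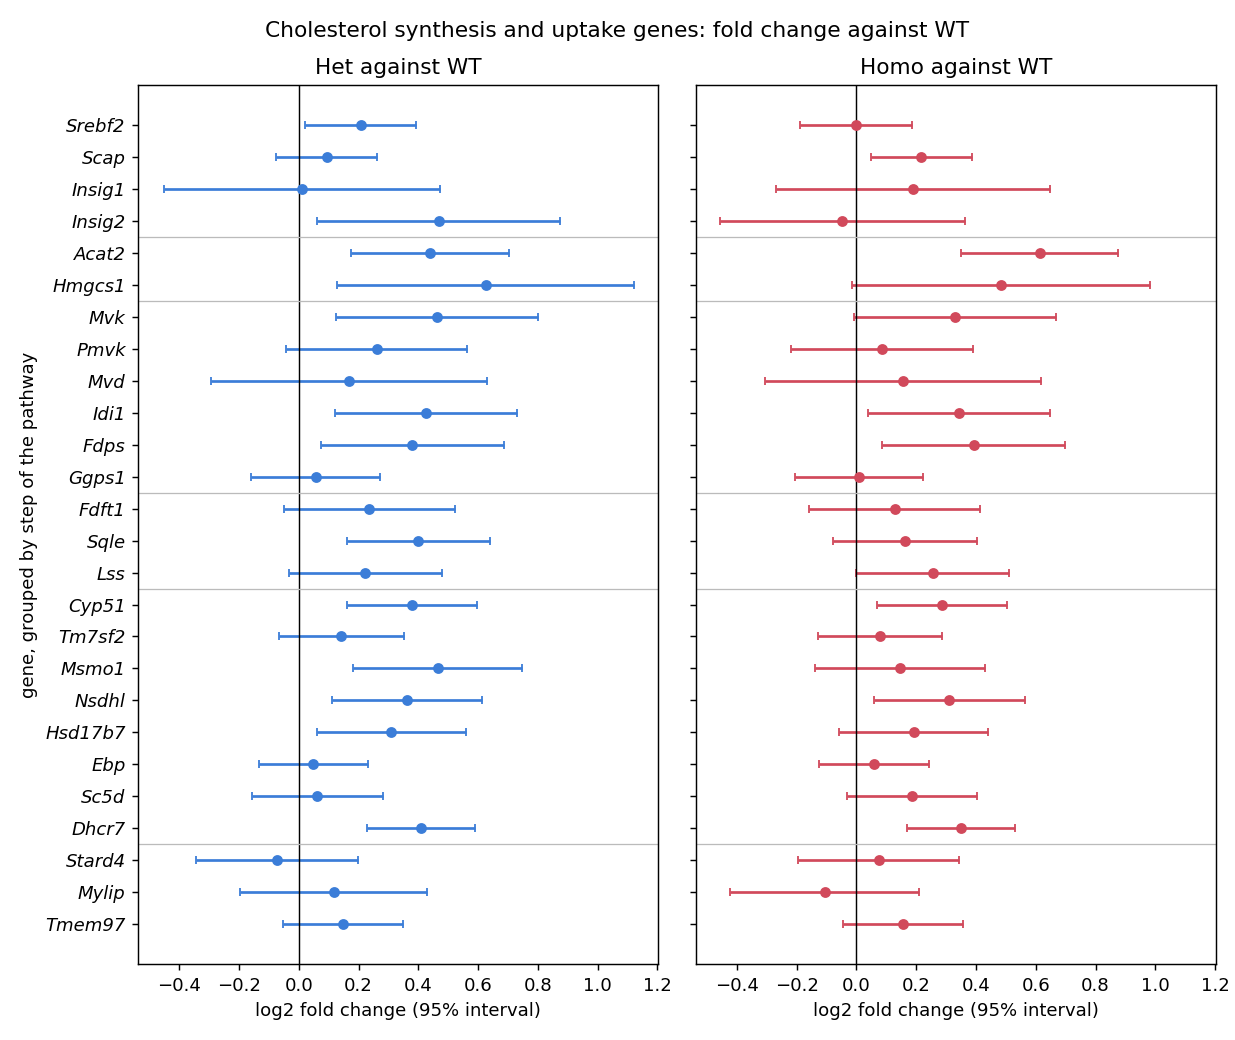
Log2 fold change against WT (horizontal axis, log2 scale) for each of the 26 members, grouped by step, with Het and Homo as separate points and bars for the 95% interval from the edgeR fit. In Het, 25 of 26 points lie above 0, and in Homo 24 of 26 do; no member passed the adjusted threshold in either.

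Among the 4 regulators of the loop, the genotype with the higher mean differed from gene to gene. Srebf2 (ENSMUSG00000022463), which encodes SREBP2 itself, ran from 42.3 to 58.2 CPM in WT, with a median of 48.2. Its levels in Het 1 to 4 were 51.1, 61.0, 61.3 and 53.6 CPM, and in Homo 1 to 4 they were 44.4, 49.6, 49.2 and 53.5. Het 2 and Het 3 stood above every WT library, while all 4 Homo libraries lay inside the WT range. The log2 fold change was 0.21 in Het (SE 0.0870, edgeR adjusted p = 0.998) and 0.00 in Homo (SE 0.0878, adjusted p = 1.00). Scap, the sterol-sensing escort of SREBP2, showed the other order. It ran from 95.9 to 121 CPM in WT, with a median of 105. Het libraries held 130, 105, 113 and 108 CPM, and Homo libraries 126, 134, 124 and 113. Homo 1, 2 and 3 and Het 1 lay above the WT range, and the log2 fold change was 0.09 in Het (SE 0.0794, edgeR adjusted p = 0.998) and 0.22 in Homo (SE 0.0792, adjusted p = 0.976).

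Insig1 and Insig2 encode the proteins that retain SCAP, and Insig1 is itself a target of SREBP2. Insig1 ran from 183 to 343 CPM in WT, with a median of 258. In Het it was 228, 257, 288 and 256 CPM, and in Homo 217, 228, 238 and 481. Homo 4 stood alone above the WT range, and all other Het and Homo libraries fell inside it. The log2 fold change was 0.01 in Het (SE 0.216) and 0.19 in Homo (SE 0.215), with edgeR adjusted p of 0.998 in each, and without Homo 4 the Homo value became -0.16. Insig2, which in liver also answers to insulin and fasting, ran from 41.6 to 60.5 CPM in WT, with a median of 48.2. The Het libraries were at 44.8, 61.2, 86.6 and 80.0 CPM, and in Homo 29.4, 47.8, 56.7 and 57.0. Het 2, 3 and 4 lay above every WT library, and Homo 1 lay below every other library. Its log2 fold change was 0.47 in Het (SE 0.190, edgeR adjusted p = 0.998) and -0.05 in Homo (SE 0.192, adjusted p = 0.998).

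The first step, from acetyl-CoA to HMG-CoA, had the highest median log2 fold changes of the 6 steps, 0.53 in Het and 0.55 in Homo, and of the 6 it was the 1 whose per-library median did not overlap WT in either genotype. It held only 2 genes, where the other steps held 3 to 8. Neither gene alone lay above WT in every Het and Homo library. Expressed as the log2 distance from the WT mean, the median of Acat2 and Hmgcs1 spanned -0.15 to 0.16 in the WT libraries. It spanned 0.24 to 0.75 in the Het libraries and the same rounded range, 0.24 to 0.75, in the Homo libraries. Acat2 (ENSMUSG00000023832), the cytosolic thiolase that joins acetyl-CoA units, ran from 29.8 to 39.9 CPM in WT, with a median of 37.6. Het 1 to 4 stood at 35.9, 50.4, 46.9 and 62.5 CPM, and in Homo 57.7, 49.0, 53.3 and 60.9. All 4 Homo libraries and Het 2, 3 and 4 lay above every WT library, and Het 1 lay inside the WT range. Acat2 had a log2 fold change of 0.61 in Homo (SE 0.123), 1.53-fold with a 95% interval of 1.27 to 1.84, and an edgeR adjusted p of 0.0761. A two-sided exact permutation test of this single gene gave p = 0.00476, the smallest that 4 against 6 libraries allow. That p is unadjusted and draws on the same separation of the libraries, so it adds no support of its own. In Het the log2 fold change of Acat2 was 0.44 (SE 0.124, edgeR adjusted p = 0.699).

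The call on Acat2 in Homo turned on the analysis. Its adjusted p was 0.00176 with DESeq2, 0.0102 without the count filter, 0.0143 with the WT and Homo libraries alone and 0.0450 with scaling by library total alone. Leaving out Het 1 gave 0.0138 and leaving out Het 4 gave 0.0243, although neither library belongs to the groups compared; the filter, the scaling, the spread and the list for adjustment are shared by all 14 libraries. Over 20 alternatives the adjusted p ran from 0.00176 to 0.288, and it was under 0.05 in 6. In the mean of Het and Homo against WT, the log2 fold change of Acat2 was 0.53 (SE 0.105) with an edgeR adjusted p of 0.0781, which became 0.0137 without the filter, 0.00150 with DESeq2 and 0.00963 without Het 1. Acat2 lies on chromosome 17, as Pkd1 does, with 165 protein-coding genes between them in the GENCODE M21 order. Of the 34 placed genes called in Homo against WT, 28 were on chromosome 17, as were 5 of 8 in Het. The share of all tested genes on that chromosome was not counted, and its part in the Acat2 values was not tested. The counts of Acat2 were not whole in all 14 libraries, as occurs where reads are shared between transcripts of different genes. Its near relative Acat3, chosen after its values were seen, averaged 162 ± 16.4 CPM in WT (n = 6), 177 ± 20.6 in Het (n = 4) and 203 ± 33.2 in Homo (n = 4), with a log2 fold change of 0.33 in Homo (edgeR adjusted p = 0.851).

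Hmgcs1 (ENSMUSG00000093930), which makes HMG-CoA and is a classical SREBP2 target with the element printed above, ran from 116 to 198 CPM in WT, with a median of 146. Het libraries held 276, 298, 158 and 195 CPM, and Homo libraries 235, 308, 174 and 122. Het 1, Het 2, Homo 1 and Homo 2 lay above every WT library, and the other 4 lay inside the WT range. The log2 fold change was 0.63 in Het (SE 0.233, edgeR adjusted p = 0.998), the highest of the 26 members there, and 0.48 in Homo (SE 0.233, adjusted p = 0.998). Without Homo 2 the Homo value was 0.24.

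**Figure D2:**
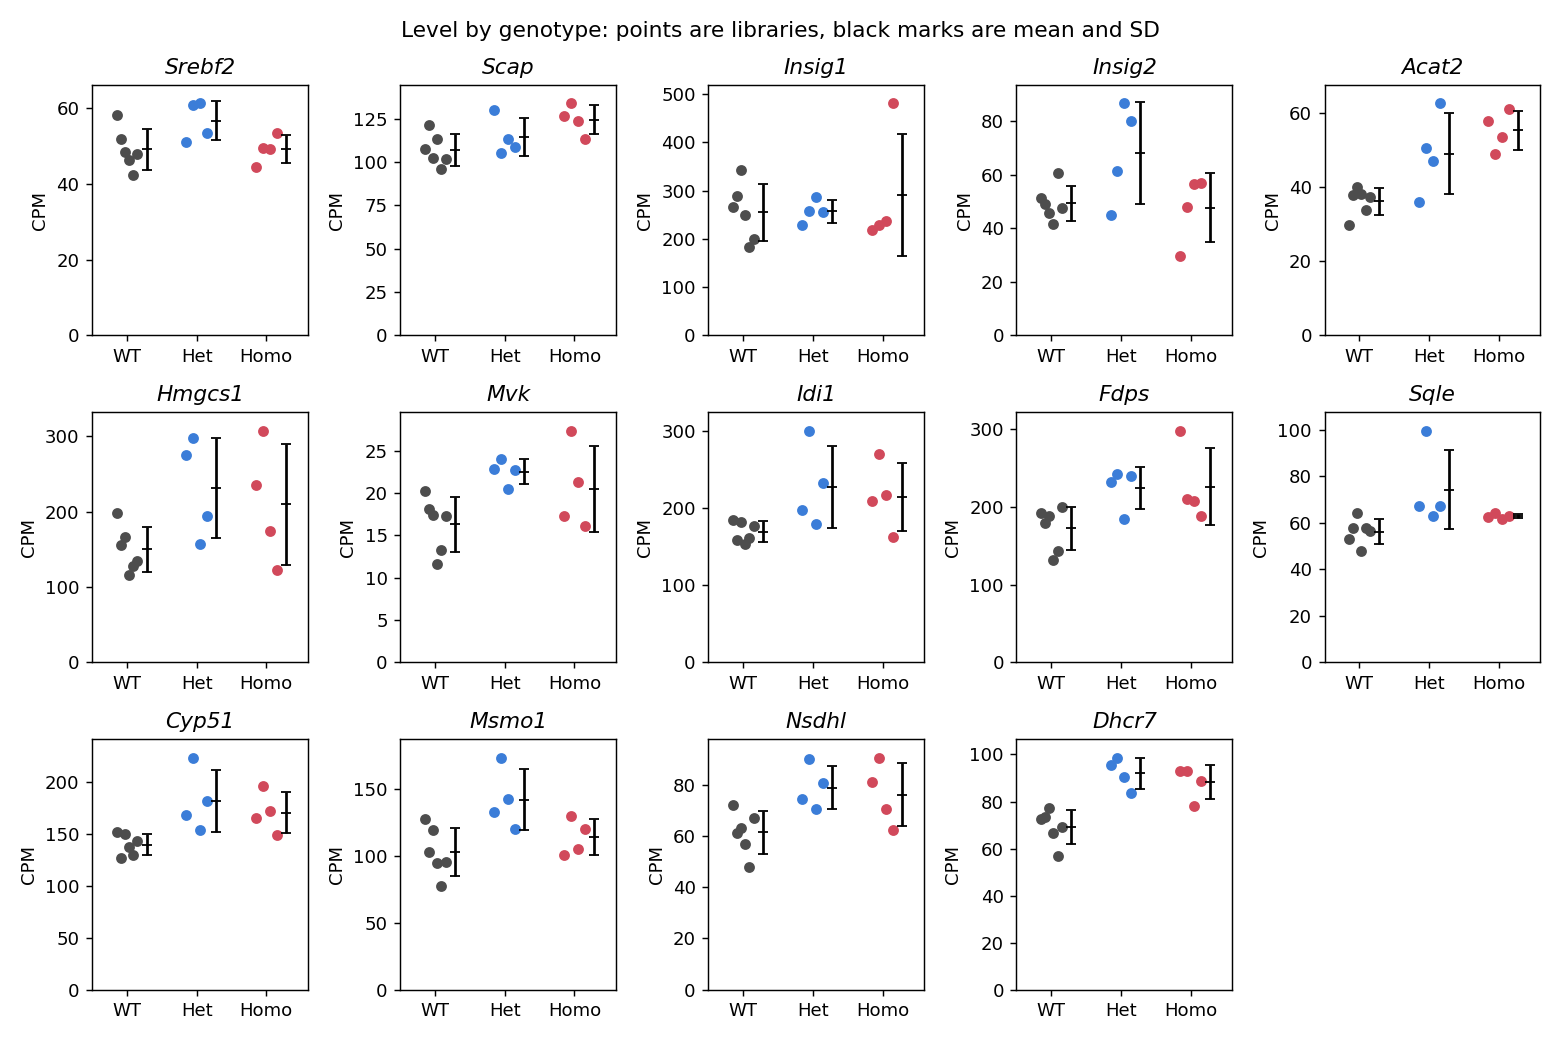
CPM (vertical axis, linear, starting at 0) in each library for the 14 members described library by library, with WT, Het and Homo side by side and the mean with SD drawn for each group. Dhcr7 has all 8 Het and Homo libraries above the WT libraries, Acat2 has all 4 Homo libraries above them, and Insig1 has 1 Homo library at 481 CPM apart from the other 3.

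The mevalonate branch, which turns mevalonate into the isoprenoid units used for sterols and for protein prenylation, had a median log2 fold change of 0.32 in Het and 0.24 in Homo over its 6 members, and all 6 were above 1 in each. Mvk, mevalonate kinase, ran from 11.6 to 20.3 CPM in WT, with a median of 17.4. Levels in Het were 22.9, 24.1, 20.5 and 22.7 CPM, and in Homo 17.3, 27.4, 21.4 and 16.1. All 4 Het libraries lay above every WT library, Het 3 only just, while Homo overlapped WT. Mvk was 1 of 3 members whose Het libraries did not overlap WT, together with Cyp51 and Dhcr7, where 0.697% of all genes were placed so. The log2 fold change of Mvk was 0.46 in Het (SE 0.158, edgeR adjusted p = 0.977) and 0.33 in Homo (SE 0.159, adjusted p = 0.998), and the Homo value was 0.16 without Homo 2.

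Idi1, the isopentenyl diphosphate isomerase, ran from 153 to 184 CPM in WT, with a median of 169. In Het it was 198, 300, 179 and 232 CPM, and in Homo 209, 270, 217 and 162. Het 3 and Homo 4 lay inside the narrow WT range and the other 6 lay above it. Its log2 fold change was 0.43 in Het (SE 0.142, edgeR adjusted p = 0.977) and 0.34 in Homo (SE 0.143, adjusted p = 0.998). Fdps, which makes farnesyl diphosphate, ran from 131 to 199 CPM in WT, with a median of 184. Het libraries held 231, 241, 183 and 239 CPM, and Homo libraries 297, 210, 208 and 187. Here too Het 3 and Homo 4 lay inside the WT range and the other 6 above it, with log2 fold changes of 0.38 in Het (SE 0.143, edgeR adjusted p = 0.998) and 0.39 in Homo (SE 0.143, adjusted p = 0.976). Without Het 2 the Idi1 value in Het was 0.26, without Homo 2 its value in Homo was 0.21, and without Homo 1 the Fdps value in Homo was 0.23.

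The other 3 genes of this branch overlapped WT more widely. Pmvk, phosphomevalonate kinase, spanned 21.6 to 32.7 CPM in WT, 28.4 to 41.4 in Het and 25.5 to 37.3 in Homo. Mvd, the decarboxylase that follows it, spanned 9.00 to 19.5 CPM in WT, 11.9 to 20.1 in Het and 10.9 to 18.8 in Homo, and had the widest spread in WT of the members, a coefficient of variation of 28.4%. Ggps1, which leads away from sterols to geranylgeranyl diphosphate, stayed between 7.25 and 10.0 CPM in every library and had log2 fold changes of 0.06 in Het and 0.01 in Homo.

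At the squalene and lanosterol step all 3 members were above 1 in each genotype, with medians of 0.24 in Het and 0.16 in Homo on the log2 scale. Sqle, the squalene epoxidase that is a rate-limiting point of the pathway, ran from 48.0 to 64.2 CPM in WT, with a median of 57.2. The Het libraries held 67.0, 99.6, 63.0 and 67.1 CPM, and in Homo 62.6, 64.0, 61.6 and 63.1. Het 1, 2 and 4 lay above every WT library, and the 4 Homo libraries sat close together inside the upper part of the WT range. Its log2 fold change was 0.40 in Het (SE 0.112, edgeR adjusted p = 0.693) and 0.16 in Homo (SE 0.113, adjusted p = 0.998), and the Het value was 0.23 without Het 2. Fdft1, squalene synthase, spanned 69.3 to 120 CPM in WT, 90.3 to 123 in Het and 87.4 to 111 in Homo. Lss, which closes squalene epoxide into lanosterol, spanned 35.6 to 56.6 CPM in WT, 46.9 to 60.2 in Het and 44.2 to 58.0 in Homo, with log2 fold changes of 0.22 and 0.26, the former 0.14 without Het 2.

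The 8 enzymes that turn lanosterol into cholesterol were all above 1 in each genotype, with medians of 0.34 in Het and 0.19 in Homo on the log2 scale. Cyp51 (ENSMUSG00000001467), the lanosterol demethylase, ran from 127 to 152 CPM in WT, with a median of 140, 1 of the narrowest ranges among the members. In Het it was 168, 223, 154 and 181 CPM, and in Homo 165, 196, 172 and 149. All 4 Het libraries and Homo 1, 2 and 3 lay above every WT library, Het 3 by a small margin. The log2 fold change was 0.38 in Het (SE 0.101, edgeR adjusted p = 0.594) and 0.29 in Homo (SE 0.102, adjusted p = 0.976).

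Msmo1, the sterol C4-methyl oxidase, ran from 77.5 to 128 CPM in WT, with a median of 99.3. Het libraries held 133, 174, 143 and 120 CPM, and Homo libraries 101, 130, 105 and 120. Het 1, 2 and 3 and Homo 2 lay above every WT library. The log2 fold change was 0.46 in Het (SE 0.132, edgeR adjusted p = 0.704) and 0.15 in Homo (SE 0.133, adjusted p = 0.998). Without Homo 2 or without WT 5 the Homo value was 0.08. Nsdhl, which acts with Msmo1 in removing the C4 methyl groups, ran from 48.1 to 72.0 CPM in WT, with a median of 62.3. Het libraries held 74.4, 90.2, 70.6 and 80.6 CPM, and Homo libraries 81.3, 90.6, 70.7 and 62.3. Het 3, Homo 3 and Homo 4 lay inside the WT range and the other 5 above it, with log2 fold changes of 0.36 in Het (SE 0.118, edgeR adjusted p = 0.976) and 0.31 in Homo (SE 0.118, adjusted p = 0.976).

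Dhcr7 (ENSMUSG00000058454), the last enzyme of the route through 7-dehydrocholesterol, was the member in which every Het and Homo library stood above WT. It ran from 56.7 to 77.1 CPM in WT, with a median of 70.8. In Het it was 95.4, 98.6, 90.4 and 83.5 CPM, and in Homo 93.1, 93.1, 78.0 and 88.7. All 8 Het and Homo libraries lay above all 6 WT libraries, Homo 3 by less than 1 CPM over the highest WT value. Dhcr7 was the single member with this placing, which 0.179% of all genes had, and with Acat2 it was 1 of 2 members whose Homo libraries did not overlap WT, where 0.735% of all genes did not. Its log2 fold change was 0.41 in Het (SE 0.0844), 1.33-fold with a 95% interval of 1.17 to 1.5, and edgeR's adjusted p was 0.161. In Homo it was 0.35 (SE 0.0845), 1.27-fold with an interval of 1.12 to 1.44, and edgeR's adjusted p was 0.274. For the mean of both it was 0.38 (SE 0.0717) with an edgeR adjusted p of 0.0506, just short of the threshold. The two-sided exact permutation p of that single value was 0.000333, the smallest that 8 against 6 libraries allow. This p is unadjusted and draws on the same separation of the libraries, so it adds no support of its own.

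For Dhcr7 too the call turned on the analysis. In the mean of both, its adjusted p was 0.000616 with DESeq2 and 0.0336 without the filter, and leaving out WT 3 or Homo 3 gave 0.0449 and 0.0342. Over 19 alternatives that adjusted p ran from 0.000616 to 0.342. DESeq2 also gave 0.00735 in Het and 0.0491 in Homo, where the other alternatives stayed above 0.05 and reached 0.527 and 0.819.

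Of the remaining enzymes of this step, Hsd17b7, a 3-ketosteroid reductase, spanned 40.6 to 52.6 CPM in WT, 48.1 to 67.9 in Het and 48.0 to 61.7 in Homo, with log2 fold changes of 0.31 and 0.19, the latter 0.10 without Homo 2. Tm7sf2, a sterol C14 reductase, spanned 33.8 to 46.3 CPM in WT, 40.4 to 48.3 in Het and 38.1 to 48.6 in Homo. Ebp, the sterol isomerase, spanned 86.8 to 123 CPM in WT, 104 to 117 in Het and 101 to 120 in Homo, so every Het and Homo library was inside the WT range. Sc5d, which introduces the C5 double bond, spanned 296 to 432 CPM in WT, 358 to 417 in Het and 384 to 458 in Homo, with log2 fold changes of 0.06 and 0.19.

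The 3 transport members stayed close to WT, with median log2 fold changes of 0.12 in Het and 0.08 in Homo. Stard4, a carrier of cholesterol through the cytosol, spanned 83.3 to 105 CPM in WT, 66.5 to 101 in Het and 75.1 to 119 in Homo, and was the single member below 1 in Het, at -0.07. Mylip, a ubiquitin ligase that lowers lipoprotein receptors and is a target of LXR, not of SREBP2, spanned 11.5 to 16.2 CPM in WT, 12.3 to 18.4 in Het and 11.1 to 18.3 in Homo. It was, with Insig2, 1 of 2 members below 1 in Homo, at -0.11. Tmem97, a membrane protein tied to sterol traffic, spanned 36.6 to 46.7 CPM in WT, 41.8 to 54.0 in Het and 40.2 to 51.3 in Homo.

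**Figure D3:**
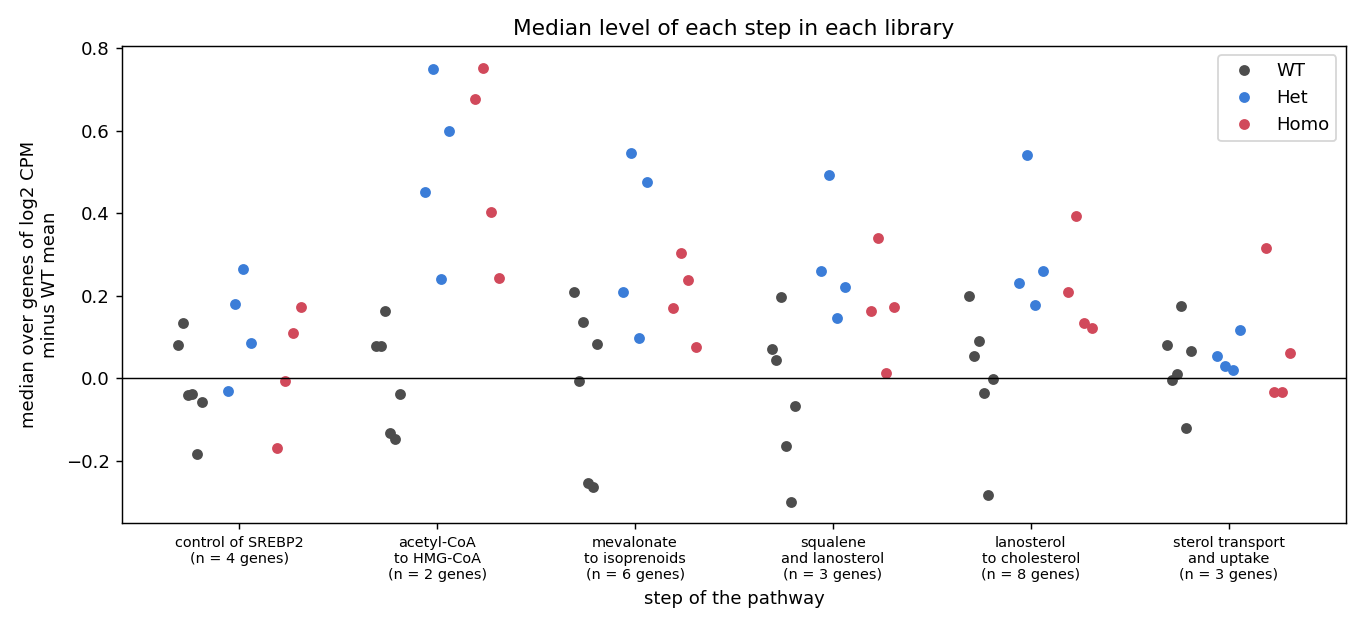
Median log2 distance from the WT mean (vertical axis) over the members of each of the 6 steps, 1 point per library, by genotype. The first step, Acat2 and Hmgcs1, runs from -0.15 to 0.16 in WT and lies at 0.24 to 0.75 for Het and for Homo, while every other step overlaps WT.

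Between Homo and Het, 9 of 26 members lay above 1, where 50.5% of all genes did, and the median log2 fold change was -0.06. None of the 26 passed the adjusted threshold, where 0.0309% of all genes did. At an unadjusted p under 0.05, 3 of 26 were lower in Homo, against 2.38% of all genes, and none was higher. Insig2 had a log2 fold change of -0.52 (95% interval of the fold 0.512 to 0.956), Msmo1 -0.32 (0.645 to 0.996) and Srebf2 -0.21 (0.752 to 0.998), with edgeR adjusted p of 0.941, 0.965 and 0.965. The Insig2 value was -0.34 without Homo 1, and the Msmo1 value was -0.21 without Het 2. With scaling by library total alone 14 of 26 members lay above 1, with a median of 0.0034. The median over all genes rose as well under that scaling, to 0.066, so the members' median stayed below it. The direction of the group between Homo and Het rested on 1 library: without Het 2, 13 of 26 lay above 1 and the median was -0.00065. Het was also set against the midpoint of WT and Homo, where it would lie if each step of genotype had the same effect. There 22 of 26 members lay above 1, where 50.5% of all genes did, with a median of 0.18, and 6 of 26 were higher at an unadjusted p under 0.05, against 2.52% of all genes. None of the 26 passed, where 0.0185% of all genes did, and the smallest edgeR adjusted p, for Msmo1 at 0.39 on the log2 scale, was 0.961. Without Het 2 the members' median in this contrast was 0.12, with 21 of 26 above 1 and 3 at an unadjusted p under 0.05.

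The same libraries were often the lowest or the highest for many members. WT 5 was the lowest of the 14 libraries for 14 of 26 members and WT 4 for 5. Het 2 was the highest for 10 of 26, and Homo 1 and Homo 2 for 4 each. The median log2 distance of the 26 members from their WT means was 0.15, 0.06, 0.12, -0.09, -0.26 and 0.00 in WT 1 to 6. It was 0.17, 0.47, 0.14 and 0.27 in Het 1 to 4, and 0.20, 0.30, 0.14 and 0.14 in Homo 1 to 4. Het 3, Homo 3 and Homo 4 lay just below the highest WT value and the other 5 above it. The members' summed CPM ran from 1966 to 2599 in WT, 2545 to 3066 in Het and 2548 to 2895 in Homo. Leaving out each library in turn gave 24 to 26 of 26 members above 1 in the mean of both, with 24 without WT 2, WT 5, Homo 1 or Homo 4. Over all 14 libraries left out in turn, the median spanned 0.18 to 0.32 for Het and 0.14 to 0.22 for Homo. With the replicate number as a block, the median was lower, at 0.16 for Het and 0.10 for Homo, and the members above 1 numbered 23 and 20. Replicates 5 and 6 exist in WT alone, so the block leaves WT 5 and WT 6 out of the contrasts. Leaving out WT 5 alone gave medians of 0.18 for Het and 0.14 for Homo.

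**Figure D4:**
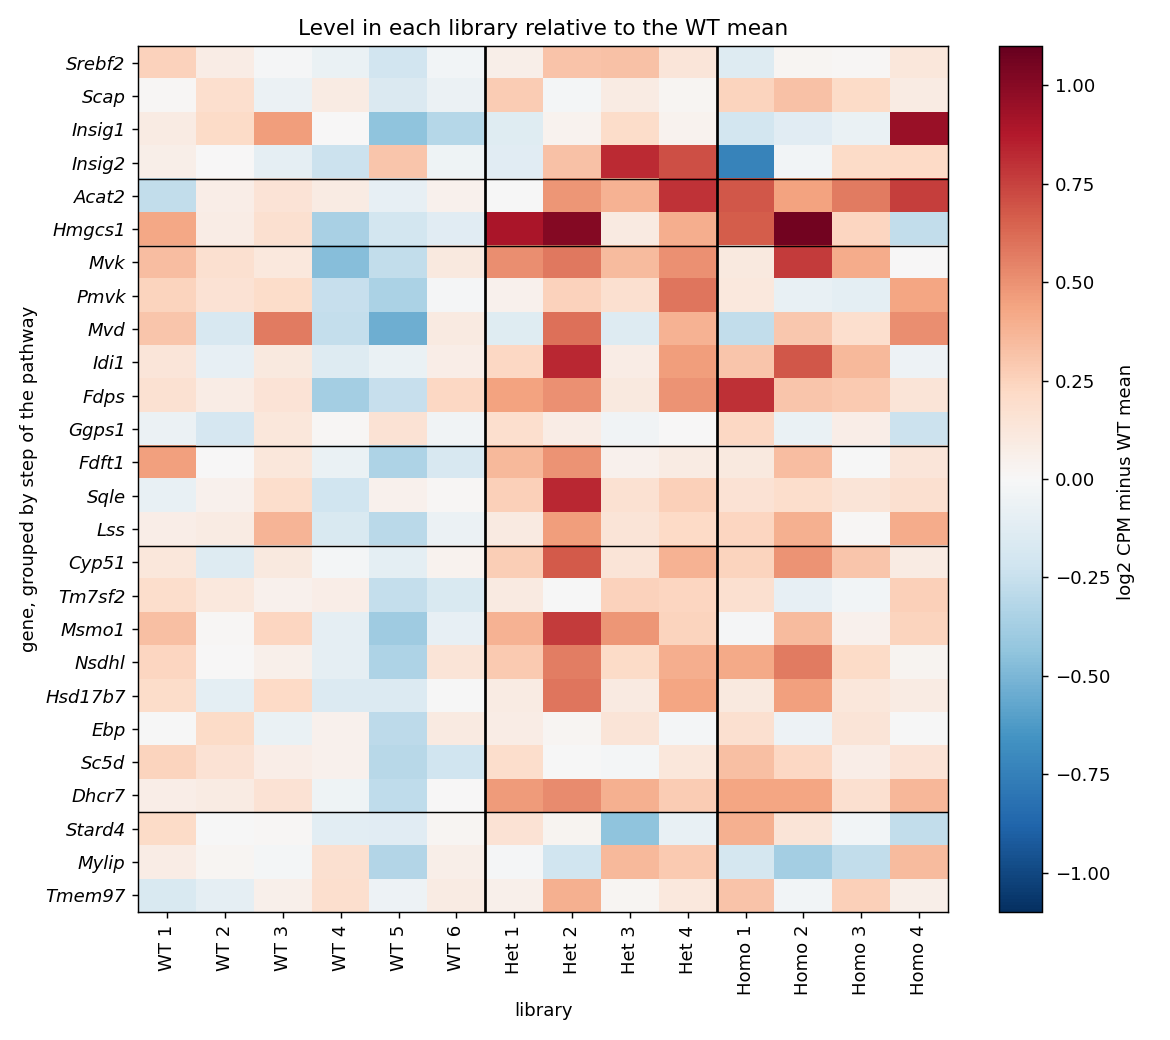
Log2 distance from the WT mean (colour, with its scale bar) for each of the 26 members, ordered by step, in each of the 14 libraries. WT 5 is the lowest library for 14 of 26 members and Het 2 the highest for 10 of 26.

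Between genes, levels can be compared only per length, here WT CPM per kilobase of annotated exon. Fdps was the most abundant on this scale at 118, followed by Insig1 at 94.6 and Sc5d at 75.6. Mvd at 7.73, Mylip at 4.47 and Ggps1 at 1.95 were the least abundant. Of the members described above, Hmgcs1 stood at 43.1, Cyp51 at 35.5, Dhcr7 at 20.9 and Acat2 at 14.5. Annotated exons of Fdft1 share 774 bases with Ctsb on the opposite strand, those of Cyp51 share 166 bases with Akap9 on the opposite strand, and those of Fdps share 1124 bases with Gm43738 on the same strand, so reads there are uncertain. The counts of Idi1 and Fdft1 were not whole in all 14 libraries, as occurs where reads are shared between transcripts of different genes. Those of Fdps and Tm7sf2 were not whole in 13 libraries, those of Tmem97 in 11 and those of Stard4 in 10.

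Of the genes around the pathway that were not members, none passed the test in any comparison. Of 14 genes of the SREBP2 machinery and of sterol-regulated degradation, 5 lay above 1 in Het and 6 in Homo. Syvn1, a ubiquitin ligase of the endoplasmic reticulum, averaged 97.2 ± 11.8 CPM in WT (n = 6), 71.4 ± 12.3 in Het (n = 4) and 83.8 ± 15.1 in Homo (n = 4), with a log2 fold change of -0.33 in the mean of both (edgeR adjusted p = 0.817). Hsp90b1, an endoplasmic reticulum chaperone, was at -0.17 in that contrast (adjusted p = 1.00). Of 13 electron donors and side-branch genes, 7 lay above 1 in Het and 6 in Homo, with Nus1 at -0.11 and Coq2 at -0.15 in the mean of both. Of 16 genes of cholesterol export, storage and LXR, 9 lay above 1 in each genotype, with Soat1, which esterifies cholesterol, at 0.22 and Abcg1, a sterol exporter, at 0.19. Of 14 tested genes of sterol traffic and uptake, out of 15 listed, 11 lay above 1 in Het and 7 in Homo, with Lrpap1 at 0.14 and Osbp at -0.12.

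Fatty acid synthesis is driven by the related factor SREBP1c. Of its 18 genes, 6 lay above 1 in Het with a median log2 fold change of -0.13, and 11 in Homo with a median of 0.05. None passed, and the named genes were Pgd, of the pentose phosphate pathway, at 0.18 in the mean of both and Slc25a1, the mitochondrial citrate carrier, at 0.10. By library, the median of the 18 genes stood at -0.19 in Het 2 and -0.31 in Homo 2, where the cholesterol members stood at 0.47 and 0.30. It was -0.08 in Het 1, -0.34 in Het 3 and -0.15 in Homo 3, where the members stood at 0.17, 0.14 and 0.14. It was 0.43 in Homo 1, where the members stood at 0.20. In Het 4 and Homo 4 both groups of genes stood above 0, at 0.18 and 0.12 for fatty acid synthesis and 0.27 and 0.14 for the members. The difference between the 2 pathways was not tested.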

How the data were processed

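The table held estimated counts per Ensembl gene, deposited by the authors, who, per the submitters' processing notes, used STAR and Salmon on GRCm39. The role and version of each tool, the annotation and the strand setting were not given in the sources used here. Per the labels' protocols, Trizol and Qiagen RNeasy were used for extraction and a NuGen Ovation kit for libraries. Each column name matched 1 sample's description. Non-whole values made up 6.36% to 8.59% of a column (tolerance 0.01), and all counts were rounded. No 2 libraries were alike: the closest pair differed by a chi-square of 24.5 per degree of freedom.

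Genes were filtered with filterByExpr (count minimum 10, total minimum 15) and scaled with TMM in edgeR 4.0.16 and limma 3.58.1 under R 4.3.3. One quasi-likelihood fit (glmQLFit, glmQLFTest) over 14 libraries gave every contrast. P-values were two-sided and Benjamini-Hochberg adjusted over 16201 genes, and a gene was called under 0.05. Log2 CPM used a prior count of 2. Single members were also tested by exact permutation, without adjustment. Nothing in the labels says whether libraries came from separate litters or batches, so p-values measure the spread between these mice. The fit was tested on simulated data, where the outcome required was recovery of large changes. That says nothing of power at the smaller folds reported here.

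The members, lists and tests were chosen with earlier results of these data known. All members are named; every library is given for the 10 members with the smallest p against WT and for Srebf2, Scap, Insig1 and Insig2, and the other 12 by range. From each other list the 2 genes with the smallest p in the mean of Het and Homo against WT are named. Exon lengths, overlaps and gene order came from GENCODE M21 on GRCm38, a different build from that of the counts, so no coordinates were carried over. Motifs were searched in RefSeq windows of GRCm38.p6. Alternatives were RLE factors, library totals alone, no filter, DESeq2 1.42.0, only the groups compared, a replicate block and each library left out.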

Additional observations from a re-analysis of the deposited data

Results flagged for a closer look

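Within each genotype, the highest and lowest library of each member were compared with the rest. In 3 of 78 groups looked at, 1 library stood apart by a gap over Dixon's 95% critical value, where chance gives about 1 in 20, or 3.9. Insig1 reached 481 CPM in Homo 4, against 217 to 238 in the other 3 Homo libraries. Sqle reached 99.6 CPM in Het 2, against 63.0 to 67.1 in the other 3 Het libraries. Hsd17b7 reached 61.7 CPM in Homo 2, against 48.0 to 49.4 in the other 3 Homo libraries. Without these libraries the log2 fold changes against WT were -0.16 for Insig1, 0.23 for Sqle and 0.10 for Hsd17b7, in place of 0.19, 0.40 and 0.19.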

How the results depend on the processing

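The number of members past the threshold, 0 as reported, was 1 in Homo against WT with library totals alone, without the filter and with only the groups compared, and 2 with DESeq2. It was 1 in Het against WT with DESeq2, and 2 in the mean of both without the filter and with DESeq2. Leaving out each library gave 0 to 1 in Homo against WT and in the mean of both, and 0 to 0 in the other comparisons. Members above 1 between Homo and Het numbered 14 with library totals alone, where the median log2 fold change over all genes was 0.066. Replicate numbers are shared between genotypes, but deviations of same-numbered libraries had r over 0.1 in only 2 of 12 pairs (-0.09 to 0.15), so the numbers were not taken as pairs. With the replicate block, which leaves WT 5 and WT 6 out of the contrasts, 0 members passed in any comparison. Over all genes the calls in Het, Homo, Homo against Het, the mean of both and the midpoint were 9, 36, 5, 27 and 3 as reported, 9, 19, 2, 12 and 0 with the block, 23, 53, 7, 46 and 5 without the filter, and 34, 64, 22, 67 and 19 with DESeq2. Of 1594 values of single genes, 55 changed sign, and none of the genes involved had a reported log2 fold change over 0.19 in size. Reversed log2 values with RLE factors, no filter and DESeq2 were -0.0032, -0.0056 and -0.0044 for Srebf2 in Homo and -0.0014, -0.0045 and -0.0013 for Stard4 in the mean of both, with Mylip at -0.0014 in the mean of both without the filter and Insig1 at -0.020 in Het with library totals alone. With the block they were -0.17 (Insig1) and -0.057 (Sc5d) in Het, -0.059 (Srebf2), -0.034 (Insig1), -0.018 (Pmvk) and -0.026 (Tm7sf2) in Homo, and -0.10 (Insig1), -0.035 (Stard4) and -0.071 (Mylip) in the mean of both. With each library left out, the genes that changed sign ran from -0.0057 to 0.091 (Ebp), -0.070 to 0.11 (Insig1) and -0.16 to 0.036 (Stard4) in Het. In Homo they ran from -0.075 to 0.080 (Ggps1), -0.16 to 0.30 (Insig1), -0.14 to 0.13 (Insig2), -0.040 to 0.15 (Pmvk), -0.042 to 0.053 (Srebf2) and -0.049 to 0.17 (Stard4). In the mean of both they ran from -0.011 to 0.068 (Ggps1), -0.075 to 0.20 (Insig1), -0.084 to 0.054 (Mylip) and -0.062 to 0.056 (Stard4). The causes were not tested. The lowest count of any member in any library was 132, for Ggps1, the member that depth limits most.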
